A study of Mus musculus with 24 samples.

Results

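Wild-type (WT) and Atf3 knockout (KO) mouse embryonic stem cells were compared by RNA-seq on day 9 of differentiation, the last of 4 time points in the series. The 6 libraries were chosen by their labels, 3 titled as Atf3 KO and 3 as the matching cells without it (genotype WT), out of 24 libraries. They are called KO 1 to 3 and WT 1 to 3 here, after the replicate numbers in the titles. Of 53465 genes in the deposited table, the 12518 with at least 1 FPKM (fragments per kilobase of gene length after scaling for each library) in at least 3 of the 6 libraries were tested. All groups came from stem cells kept in serum medium with leukemia inhibitory factor, the GSK3 inhibitor CHIR99021 and the MEK inhibitor PD0325901. All 6 libraries carry the treatment label differentiation. The sources used here do not give the differentiation medium, the edited part of Atf3 or the number of KO clones. The genotype field of the KO libraries reads "Atf KO". The batch field repeats the group name, so batch and genotype cannot be told apart. Nothing in the labels says that a group's libraries were grown as separate cultures, so p-values measure library spread that may be technical.

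Atf3 belongs to the ATF/CREB family of transcription factors and is switched on by stress. Its basic leucine zipper is the part through which it binds DNA as a dimer, often with Jun proteins. It can repress or activate genes that carry AP-1 or CRE sites. When mouse embryonic stem cells leave the undifferentiated state, part of them passes through mesoderm, which gives rise to heart muscle, endothelium, blood, smooth muscle and fibroblasts. Such cultures can also form cells that express genes of the yolk sac endoderm and of trophoblast, the tissues that nourish the embryo. The series asks how loss of Atf3 bears on mesoderm and on endothelial differentiation.

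Between 13771073 and 25274402 reads per library were recovered from the 6 libraries, with a median of 17303411. Gm42418, Gm23935 and CT010467.1, which hold rRNA-type sequence, together took 4.42%, 9.78% and 14.9% of reads in WT 1 to 3 and 7.34%, 11.5% and 4.92% in KO 1 to 3. The widest 95% Wilson interval of these 6 shares, that of WT 3, ran from 14.93% to 14.96%. The first principal component held 53.9% of the variance between these 6 libraries and placed them in the same order as that share, with both genotypes spread along it. The second held 23.3%, with the 3 KO libraries at 0.35 to 33.5 and the 3 WT libraries at -23.3 to -7.28. The titles of all libraries of the series read "Mes cells", those of day 0 among them, so the title names no cell type reached by day 9. The mesoderm marker Pdgfra stood at 4.60 to 11.6 FPKM in all 6 libraries. The early mesoderm factor T was at 0.383 to 1.10 FPKM in 5 libraries and at 16.7 FPKM in KO 1. KO 1 was also the highest library in Eomes, Lhx1, Cer1 and Fgf5, genes of early germ layers, at 2.02 to 3.72 FPKM against at most 1.39 FPKM in the other 5. The pluripotency factor Pou5f1 was still at 10.6 to 45.3 FPKM, and KO 1 and WT 1 were the lowest. These 7 markers were chosen after their values were seen. The day 6 libraries, used below for 1 comparison, held 7855615 to 17003214 reads with 6.10% to 45.6% in rRNA-type genes, and WT 3 of day 6 had both the fewest reads and the highest share. The library labelled KO 3 of day 6 held 4.17 FPKM of Atf3, against 0.343 and 0.578 FPKM in the other KO libraries of that day and 10.9 to 23.99 FPKM in WT, so its label is less sure and the day 6 results are given with and without it.

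Atf3 itself (ENSMUSG00000026628, mm10 chr1:191170296-191218039, minus strand) checks the labels. It stood at 13.7, 15.1 and 16.2 FPKM in WT 1 to 3 and at 0.355, 0.714 and 0.532 FPKM in KO 1 to 3. The groups did not overlap, and the KO mean was 3.57% of the WT mean. The difference on the log2(FPKM + 1) scale was -3.38 ± 0.40 (SE, n = 3 and 3; limma, Benjamini-Hochberg adjusted p = 4.03e-05). An exact two-sided permutation test of the 3 against 3 values gave p = 0.1, the smallest this design allows. Of 30 tested genes of the AP-1, CREB and C/EBP families, 2 were lower and none higher, and both had reached the level for testing in WT alone. The other was Cebpa, a C/EBP factor of liver, fat and myeloid cells, at 1.42, 1.46 and 1.302 FPKM in WT and 0.375, 0.625 and 0.631 FPKM in KO (log2 difference -0.64 ± 0.15, limma adjusted p = 0.0265). Its call was lost without any 1 of WT 1, WT 2, WT 3, KO 1 or KO 2 (limma adjusted p = 0.0516 to 0.17). Jun, a dimer partner of Atf3, differed by 0.50 ± 0.48 with overlapping groups, and the stress factor Atf4 by -0.24 ± 0.23. Jun and Atf4 were chosen after their values were seen.

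At day 9, 152 genes were called different between the genotypes at an adjusted p under 0.05 (limma, 1.21% of the genes tested). In KO, 75 genes were higher (0.599% of those tested) and 77 lower (0.615%). The median difference over all tested genes was 0.01 on the log2 scale. The 3 KO values lay wholly above or below the 3 WT values in 1342 genes (10.7% of those tested), 838 above and 504 below, and in all 152 called genes. A share of 0.1 of the ways to split 6 values into 3 and 3 separates fully, so 10.7% is near what no difference would give. When the values were rescaled to TPM the split moved to 57 higher and 28 lower. Of the 59 called genes followed through the alternative fits, 24 lost their calls. When any 1 library was left out the number of calls ranged from 104 to 176, and 82 of the 152 genes were called in all 6 of those fits. The fit takes the spread between libraries from all 8 groups. The median standard deviation of a gene in KO and WT was 0.108 and 0.182 at day 0 and 0.194 and 0.231 at day 3. It was 0.370 and 0.337 at day 6 and 0.236 and 0.285 at day 9. With the spread of the 6 day 9 libraries alone 1 gene, Atf3, was called, although 576 had an unadjusted p under 0.05 (limma). That fit has fewer residual degrees of freedom than the 16 of the full fit. With the libraries of days 6 and 9 alone 24 were called. A gene that reached the level for testing in 1 genotype alone had to differ, so the counts of the lists below are also given without such genes. Of the 12518 tested genes 99 were of this kind. Their groups separate fully by the filter itself, and the counts of 152 and 1342 genes include such genes.

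**Figure D1:**
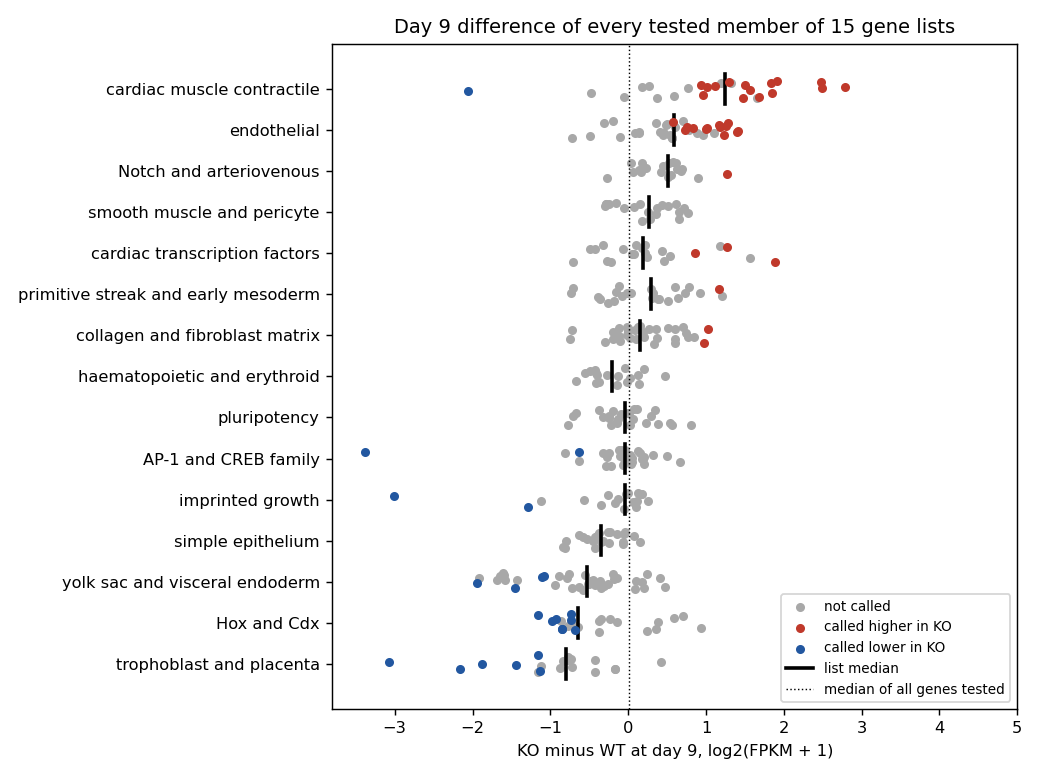
Difference between KO and WT at day 9 on the log2(FPKM + 1) scale (horizontal axis) for every tested member of 15 gene lists (rows). Red and blue points are genes called higher and lower, grey points were not called, black bars are list medians and the dotted line is the median of all 12518 genes; heart muscle genes lie furthest to the right, with a median of 1.25, and the trophoblast list has the lowest median, -0.80.

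Genes of the contractile apparatus of heart muscle were higher in KO. Of 26 tested genes in this list 15 rose and 1 fell, with a median difference of 1.25 against 0.01 over all tested genes, and in 18 the KO values lay wholly above WT. Over all 12518 tested genes 75 rose, 77 fell and 838 lay wholly above WT. Without Actn2 and Ldb3, which reached the level for testing in KO alone, 13 of 24 rose. In bulk RNA a larger share of cardiomyocytes and more of these transcripts per cell cannot be told apart. The thick filament, the myosin motor and its light chains, moved as a group: 7 of 8 tested genes rose. Myh6, the fast cardiac myosin heavy chain, stood at 2.22, 2.21 and 2.51 FPKM in WT 1 to 3 and at 24.5, 32.8 and 12.97 FPKM in KO 1 to 3. Every KO library was at least 5 times above every WT library. The mean was 10.1 times higher, with a log2 difference of 2.79 ± 0.24 (limma adjusted p = 6.42e-07). Myh7, the slow heavy chain, was at 3.85, 2.66 and 2.71 FPKM in WT and 18.2, 15.3 and 8.71 FPKM in KO (log2 difference 1.84 ± 0.26, limma adjusted p = 0.000303). Myl2, the ventricular regulatory light chain, went from 1.06, 1.00 and 1.66 FPKM to 4.56, 7.52 and 6.60 FPKM (1.68 ± 0.14, adjusted p = 5.5e-07). The atrial light chains were more abundant. Myl7 stood at 32.9, 47.8 and 77.1 FPKM in WT and 276, 555 and 145 FPKM in KO (log2 difference 2.48 ± 0.54, adjusted p = 0.0189). Myl4 stood at 5.43, 8.69 and 13.5 FPKM in WT and 38.1, 69.4 and 14.1 FPKM in KO (1.84 ± 0.40, adjusted p = 0.0196). In both, KO 2 was the highest library and KO 3 the nearest to WT. The calls of Myl4 and Myl7 were each lost without any 1 of WT 1, WT 2, KO 1 or KO 2 (limma adjusted p = 0.0716 to 0.139).

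In the thin filament 3 of 6 tested genes rose. Actc1, cardiac alpha-actin, stood at 38.8, 39.7 and 43.3 FPKM in WT and 382, 302 and 109 FPKM in KO. The WT libraries were close together and KO 3 was again the lowest of its group. The log2 difference was 2.49 ± 0.47 (limma adjusted p = 0.00527), and the call was lost without KO 1 (adjusted p = 0.0554). Tnnt2, cardiac troponin T, was at 1.97, 2.47 and 3.39 FPKM in WT and 13.1, 23.4 and 5.95 FPKM in KO (1.91 ± 0.32, adjusted p = 0.00214). Tpm1, a tropomyosin found in many cell types and chosen after its values were seen, differed by -0.05 ± 0.21. Among Z-disc, titin and intermediate filament genes 4 of 7 rose (2 of 5 without Actn2 and Ldb3), among them the small heat shock protein Hspb7 at 0.827, 1.64 and 1.34 FPKM in WT and 5.67, 7.32 and 4.23 FPKM in KO (1.56 ± 0.16, adjusted p = 8.08e-06). Of 2 tested calcium-handling genes the sodium-calcium exchanger Slc8a1 rose (1.11 ± 0.20, adjusted p = 0.0035), from 3.47, 1.28 and 1.08 FPKM to 6.24, 4.25 and 4.64 FPKM. WT 1 was the highest WT library. The remaining 17 listed genes, among them Ttn, Ryr2 and Pln, were under the level needed for testing. Fabp3, a fatty acid carrier of heart and skeletal muscle, moved the other way: 99.4, 120 and 165 FPKM in WT against 27.6, 38.9 and 23.7 FPKM in KO. Its log2 difference was -2.06 ± 0.33 (limma adjusted p = 0.00112), and the call was lost with TPM values.

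Strand is not stated, and GENCODE places genes on the opposite strand over several of these. The antisense genes CT025533.1 over Myh6, CT025533.2 over Myh7 and Gm11096 over Slc8a1 were called higher too, so their reads cannot be told apart from those of the muscle genes. Unc45b and Rbm24, outside the list, were among the highest called genes. Unc45b, a chaperone that folds myosin, stood at 1.70, 1.86 and 2.10 FPKM in WT and 10.2, 9.39 and 4.78 FPKM in KO (log2 difference 1.61 ± 0.20, limma adjusted p = 5.08e-05). It overlaps the called genes Unc45bos and Slfn5os on the opposite strand. Rbm24, an RNA-binding protein that directs splicing in muscle, stood at 0.935, 1.13 and 0.463 FPKM in WT and 8.19, 4.97 and 2.39 FPKM in KO (1.65 ± 0.25, adjusted p = 0.00068). Cox6a2, the muscle form of a respiratory chain subunit, was the single called gene of 34 tested in oxidative phosphorylation (1.19 ± 0.19, adjusted p = 0.0011), at 0.505, 0.294 and 1.29 FPKM in WT and 2.91, 3.80 and 1.79 FPKM in KO. None of the 5 tested skeletal muscle genes was called. Unc45b and Rbm24 lay wholly above WT in KO, and so did Cox6a2.

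**Figure D2:**
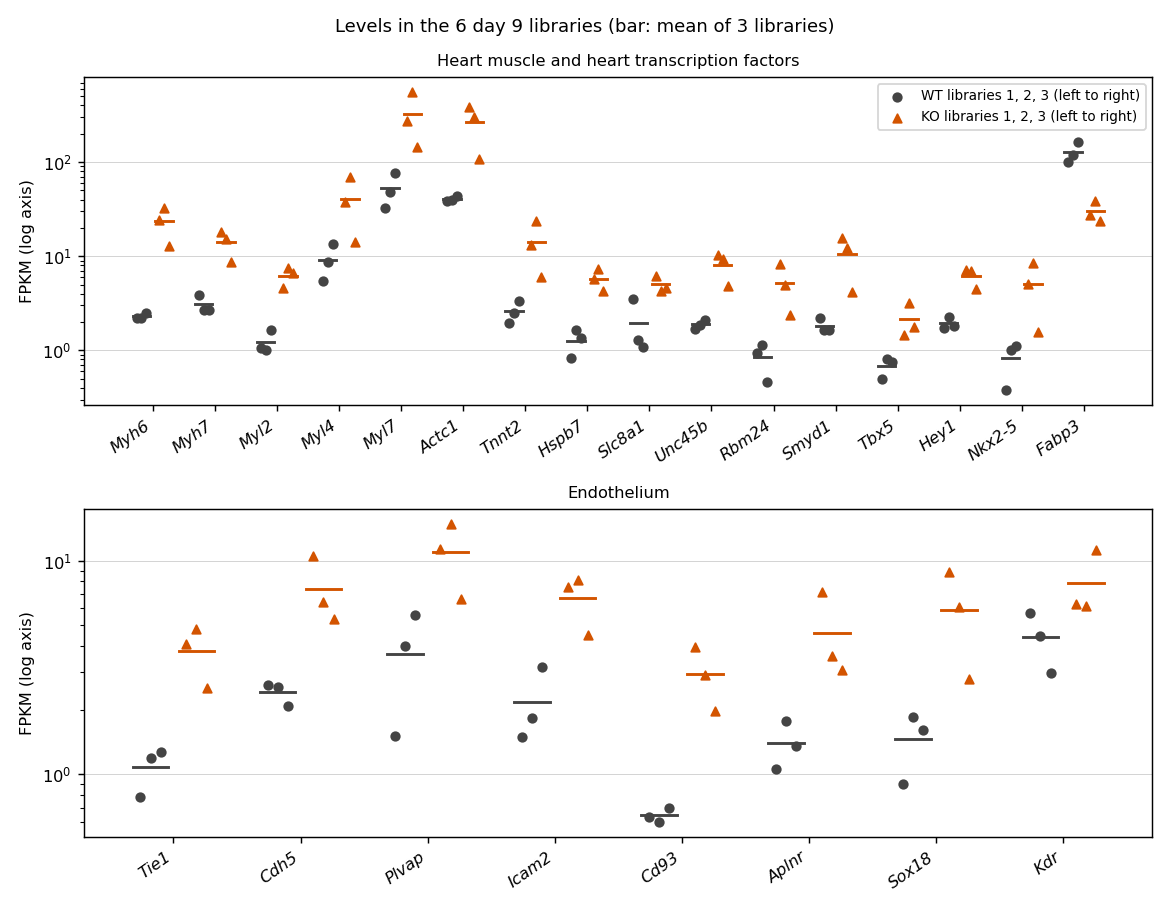
FPKM (log axis) of 16 genes of heart muscle and its transcription factors (upper panel) and 8 endothelial genes (lower panel) in WT (grey circles) and KO (orange triangles), with libraries 1, 2 and 3 from left to right and bars at the mean of 3. Actc1 stands at 38.8 to 43.3 in WT and 109 to 382 in KO, Fabp3 is lower in KO, and KO 3 is often the KO library nearest to WT in the upper panel.

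The 250 bases before the start of the called genes were searched for 4 short motifs on both strands, because muscle genes are known to carry the CArG box, which serum response factor binds, and Atf3 binds AP-1 and CRE sites. Sequences came from the RefSeq promoter table on build GRCm38.p6, which held 49 of the 75 higher genes, 56 of the 77 lower genes and 8628 of the 12518 tested genes. A CArG box lay before 5 of the 49 higher genes (10.2%: Actc1, Asb2, Ldb3, Myl7 and Myom1), 1 of the 56 lower genes (1.79%: Ppbp), 1.43% of all tested genes and 1.47% of all 32851 promoters. The AP-1 motif TGANTCA lay before 1 of the 49 higher genes (2.04%), 4 of the 56 lower genes (7.14%: Esx1, Gkn1, Ppbp and Tmem37), 4.78% of tested genes and 6.75% of all promoters. The CRE motif TGACGTCA lay before none of the higher genes and 1 lower gene, Gm648, against 3.08% of tested genes and 1.55% of all promoters. The MEF2 box lay before 1 higher gene, Mybpc3, and 2 lower genes, Atf3 and Mal, against 1.76% of tested genes. These are matches of letters and were not tested. The counts include Ldb3, which reached the level for testing in KO alone, and Atf3 and Gkn1, which reached it in WT alone. Shown first are 3 sarcomere genes with a CArG box, in capitals, read 5′ to 3′ on the gene's strand and ending 1 base before the RefSeq start.
Actc1, chr2:114052876-114053125, minus strand: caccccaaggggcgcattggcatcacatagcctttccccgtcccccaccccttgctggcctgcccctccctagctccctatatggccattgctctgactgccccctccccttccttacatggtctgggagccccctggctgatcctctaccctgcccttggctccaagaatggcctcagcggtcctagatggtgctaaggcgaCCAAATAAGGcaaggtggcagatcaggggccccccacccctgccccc
Myl7, chr11:5898783-5899032, minus strand: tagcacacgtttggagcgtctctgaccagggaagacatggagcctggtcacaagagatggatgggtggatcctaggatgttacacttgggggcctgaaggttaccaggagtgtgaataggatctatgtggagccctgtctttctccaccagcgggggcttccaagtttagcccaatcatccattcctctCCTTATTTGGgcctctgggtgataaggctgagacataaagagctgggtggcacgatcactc
Myom1, chr17:71019307-71019556, plus strand: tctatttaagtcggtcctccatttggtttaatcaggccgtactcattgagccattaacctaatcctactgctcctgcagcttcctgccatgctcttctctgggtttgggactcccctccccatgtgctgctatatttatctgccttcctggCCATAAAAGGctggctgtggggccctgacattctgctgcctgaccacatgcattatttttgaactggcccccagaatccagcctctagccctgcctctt
The box lies 47 to 38 bases before the start in Actc1, 61 to 52 in Myl7 and 99 to 90 in Myom1. In GENCODE the Myl7 window lies outside any gene. The window of Actc1 overlaps the models of Actc1 (12 bases exonic) and, on the plus strand, of A530058N18Rik (none exonic). That of Myom1 overlaps the models of Myom1 (36 bases exonic) and Gm26561 (none exonic), both on the plus strand. Myom1, the M-band protein myomesin chosen here for its promoter, stood at 1.65, 1.41 and 1.16 FPKM in WT and 4.03, 4.43 and 2.52 FPKM in KO (log2 difference 0.93 ± 0.14, limma adjusted p = 0.00068). The single AP-1 match before Gkn1, which is described below with the lower genes, is shown in the same way.
Gkn1, chr6:87350916-87351165, minus strand: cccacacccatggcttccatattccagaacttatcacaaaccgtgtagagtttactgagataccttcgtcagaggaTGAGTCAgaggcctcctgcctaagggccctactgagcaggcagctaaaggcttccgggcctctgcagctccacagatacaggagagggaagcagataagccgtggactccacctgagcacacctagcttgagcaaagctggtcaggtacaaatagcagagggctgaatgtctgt
It lies 174 to 168 bases before the RefSeq start, and 27 bases of that window are exonic in GENCODE.

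The transcription factors of the heart moved less as a group than the muscle genes. Of 22 tested, 3 rose and none fell, with a median difference of 0.20, and 2 of 21 without Tbx5, which reached the level for testing in KO alone. Smyd1, a muscle methyltransferase needed for ventricle growth, stood at 2.19, 1.64 and 1.66 FPKM in WT and 15.7, 12.2 and 4.15 FPKM in KO (1.89 ± 0.26, limma adjusted p = 0.000291). Tbx5, a T-box factor of atria and left ventricle, stood at 0.502, 0.801 and 0.749 FPKM in WT and 1.45, 3.20 and 1.77 FPKM in KO (0.86 ± 0.15, adjusted p = 0.00246). Hey1, a Notch target of atrium and endothelium, was at 1.71, 2.28 and 1.84 FPKM in WT and 7.08, 7.02 and 4.49 FPKM in KO (1.27 ± 0.27, adjusted p = 0.0128). The call of Hey1 was lost without any 1 of WT 1, WT 3, KO 1 or KO 2 (adjusted p = 0.0603 to 0.0842). Nkx2-5, the homeobox factor of early cardiomyocytes, did not pass. It stood at 0.376, 1.02 and 1.10 FPKM in WT and 5.13, 8.50 and 1.58 FPKM in KO, with no overlap and a log2 difference of 1.56 ± 0.42 (limma adjusted p = 0.0867). The factors Gata4 and Hand2, which smooth muscle and endoderm or neural crest also use, differed by 0.18 ± 0.23 and 0.43 ± 0.49. Nkx2-5, Gata4 and Hand2 were chosen after their values were seen. Without KO 3 the count of risen factors went from 3 to 6.

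Endothelial genes were higher in KO at day 9. Of 36 tested genes 13 rose and none fell, with a median difference of 0.59 against 0.01 over all tested genes. The KO values lay wholly above WT in 19 and wholly below in 3. Over all 12518 tested genes 75 rose, 838 lay wholly above WT and 504 wholly below. Among the receptors for VEGF and angiopoietin 2 of 7 rose. Tie1, a receptor kinase of the angiopoietin pathway, stood at 0.780, 1.19 and 1.27 FPKM in WT and 4.06, 4.79 and 2.54 FPKM in KO. The lowest KO library stood above the highest WT library, and the log2 difference was 1.18 ± 0.20 (limma adjusted p = 0.00214). Tek, the other receptor of that pathway, rose by 0.76 ± 0.18 (limma adjusted p = 0.0416). Whether the call of Tek held with a library left out is not given here. The VEGF receptors did not pass. Kdr, the main signalling receptor, was at 5.72, 4.45 and 3.00 FPKM in WT and 6.28, 6.15 and 11.3 FPKM in KO (0.71 ± 0.28, adjusted p = 0.555), and the decoy receptor Flt1 differed by -0.20 ± 0.37. Kdr, Tek and Flt1 were chosen after their values were seen.

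Junction and surface genes held most of the endothelial calls, 10 of 19 tested. Cdh5, VE-cadherin of the endothelial junction, was at 2.62, 2.57 and 2.10 FPKM in WT and 10.5, 6.38 and 5.35 FPKM in KO (log2 difference 1.25 ± 0.25, limma adjusted p = 0.00733). Plvap, which forms the diaphragms of endothelial pores, was at 1.51, 3.97 and 5.56 FPKM in WT and 11.3, 14.9 and 6.64 FPKM in KO (1.40 ± 0.34, adjusted p = 0.0418). Icam2, an adhesion molecule for leukocytes, was at 1.504, 1.84 and 3.18 FPKM in WT and 7.53, 8.11 and 4.48 FPKM in KO (1.28 ± 0.25, adjusted p = 0.00741). In these genes too the KO values lay above all WT values, with KO 3 the lowest. Cd93, a C-type lectin of new vessels, had the least spread in WT: 0.635, 0.598 and 0.696 FPKM against 3.94, 2.93 and 1.99 FPKM in KO (1.24 ± 0.14, adjusted p = 2e-05). Aplnr, the apelin receptor, was at 1.06, 1.78 and 1.37 FPKM in WT and 7.16, 3.57 and 3.10 FPKM in KO (1.16 ± 0.25, adjusted p = 0.0192). Among endothelial transcription factors 1 of 10 rose, Sox18, which specifies lymphatic and other vessels, from 0.901, 1.85 and 1.62 FPKM to 8.88, 6.07 and 2.78 FPKM (1.41 ± 0.34, adjusted p = 0.0416). The early vessel factor Etv2 differed by 0.36 ± 0.38 with overlapping groups. Aplnr and Etv2 were chosen after their values were seen. The endothelial list lost calls when a library was left out: 5 rose without KO 1, 7 without WT 1, and 8 each without WT 2 or KO 2. Cdh5 lost its call without KO 1 (limma adjusted p = 0.071), Aplnr without WT 1, WT 3 or KO 1 (0.0771 to 0.17), Icam2 without WT 1, WT 2, KO 1 or KO 2 (0.0508 to 0.0562), Plvap without the same 4 (0.0896 to 0.266), and Sox18 without any but KO 3 (0.0807 to 0.318). Emcn, Cd93 and Tal1 had reached the level for testing in KO alone, and without them 11 of 33 rose, 8 of 17 among the junction and surface genes.

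Notch signalling and arteriovenous genes lay to the same side with a single call. Of 19 tested genes 18 had a positive difference, with a median of 0.52, and 9 lay wholly above WT, but only Hey1 passed. Of all 12518 tested genes 6575 had a positive difference and 838 lay wholly above WT. The ligand Jag1 and the receptor Notch1, chosen after their values were seen, differed by 0.90 and 0.55 on the log2 scale. Other mesoderm derivatives gave few calls or none. With 1.21% of all tested genes called, a list of 18 or 20 genes can lack calls at that share. None of 20 tested smooth muscle and pericyte genes passed, with a median of 0.27. The 2 parts of this list differed. All 4 pericyte genes were positive, with a median of 0.56 and an unadjusted p under 0.05 (limma), and 1 lay wholly above WT. The 16 contractile genes had a median of 0.16, with 10 positive and 6 negative. Acta2, smooth muscle actin and the most abundant of them, stood at 493, 823 and 925 FPKM in WT and 1059, 830 and 726 FPKM in KO, with overlapping groups. Tagln, which binds actin in the same cells, stood at 187, 309 and 364 FPKM in WT and 324, 285 and 267 FPKM in KO. WT 1 was the lowest library in both. None of 18 blood genes was called and in none did the groups separate. The embryonic globin Hbb-bh1 stood at 103, 163 and 208 FPKM in WT and 50.2, 203 and 141 FPKM in KO. Hba-x, the embryonic alpha-type globin, stood at 61.1, 133 and 195 FPKM in WT and 34.3, 162 and 120 FPKM in KO. KO 1 was the lowest library in both globins.

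Of 24 tested genes of the primitive streak and early mesoderm 1 rose, Foxc2, a forkhead factor of paraxial mesoderm and lymphatic valves. It stood at 0.536, 1.27 and 1.04 FPKM in WT and 5.46, 2.88 and 2.16 FPKM in KO (log2 difference 1.16 ± 0.23, limma adjusted p = 0.00707). The call was lost without WT 1 (adjusted p = 0.0562) or KO 1 (0.06). Of 33 collagen and matrix genes 2 rose. Fbn1, fibrillin of elastic microfibrils, stood at 5.67, 4.60 and 2.85 FPKM in WT and 8.54, 6.41 and 14.5 FPKM in KO (0.98 ± 0.24, adjusted p = 0.0416). Bgn, the matrix proteoglycan biglycan, stood at 1.36, 1.46 and 1.58 FPKM in WT and 7.53, 2.14 and 3.69 FPKM in KO (1.02 ± 0.25, adjusted p = 0.0442). Both lay wholly above WT, with KO 3 highest in Fbn1 and KO 1 in Bgn. Fbn1 lost its call without WT 2, WT 3, KO 1 or KO 3 (limma adjusted p = 0.0917 to 0.361) and Bgn without any library but KO 2 (0.075 to 0.312).

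Genes of trophoblast and placenta were lower in KO. Of 20 tested genes 6 fell and none rose, with a median difference of -0.80, and the KO values lay wholly below WT in 16. Over all 12518 tested genes 77 fell (0.615%) and 504 lay wholly below WT. The Rhox homeobox genes, an X-linked cluster expressed in placenta and germ cells, held 2 of the 6. Rhox6 stood at 32.2, 41.8 and 66.5 FPKM in WT 1 to 3 and 1.47, 8.32 and 6.08 FPKM in KO 1 to 3, a mean 8.85 times lower and a log2 difference of -3.07 ± 0.43 (limma adjusted p = 0.000303). Rhox9 stood at 5.65, 8.93 and 10.4 FPKM in WT and 0.271, 1.39 and 1.78 FPKM in KO (-2.16 ± 0.25, adjusted p = 2.74e-05). Rhox5, the best known member, stood at 28.9, 49.5 and 62.8 FPKM in WT and 11.7, 28.6 and 22.2 FPKM in KO and did not pass (-1.16 ± 0.37, adjusted p = 0.251). No KO library reached the lowest WT library in any of these 3 genes, and KO 1 was the lowest. Esx1, an X-linked homeobox factor of trophoblast, stood at 5.64, 6.27 and 8.10 FPKM in WT and 0.657, 2.63 and 0.466 FPKM in KO (-1.88 ± 0.26, adjusted p = 0.000303). The X-linked Plac1, needed for placental growth, was nearly constant in WT at 7.20, 7.70 and 7.72 FPKM and stood at 1.48, 4.14 and 3.34 FPKM in KO (-1.16 ± 0.22, adjusted p = 0.00438). Chromosome X held 9 of the 77 lower genes, 2 of the 75 higher genes and 3.07% of all tested genes. Plac8 and the hormone secretin (Sct) fell by 1.13 ± 0.24 and 1.44 ± 0.34 on the log2 scale (limma adjusted p = 0.0142 and 0.0349). Plac8, chosen after its values were seen, lost its call without WT 2, WT 3 or KO 1 (adjusted p = 0.0888 to 0.135), and Sct without those or KO 3 (0.0908 to 0.314). Defining markers of mature trophoblast, Tpbpa, Gcm1 and Prl3d1, were under the level for testing, and so was the stem cell factor Elf5. Eomes, a factor of trophoblast stem cells that is listed with the primitive streak too, was also under that level and lay the other way, at 0.434, 0.529 and 0.421 FPKM in WT and 3.27, 0.873 and 0.569 FPKM in KO. Without Ascl2, which reached the level for testing in WT alone, 6 of 19 fell.

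Genes of the yolk sac and visceral endoderm also lay lower in KO. Of 38 tested genes 4 fell and none rose, the median was -0.53 and 13 lay wholly below WT, against 77 fallen and 504 wholly below of all 12518 tested genes. The 4 were in the endocytosis and the lipoprotein and carrier groups. All 20 tested genes of these groups had negative differences, with a median of -1.10 over the 8 endocytosis genes and -1.15 over the 12 carriers. Ctsh, a lysosomal protease, stood at 14.2, 15.2 and 20.3 FPKM in WT and 3.29, 4.96 and 2.64 FPKM in KO (-1.94 ± 0.39, limma adjusted p = 0.00929). Lgmn, the lysosomal protease legumain, stood at 65.0, 75.6 and 80.3 FPKM in WT and 36.6, 34.8 and 29.5 FPKM in KO (-1.11 ± 0.24, adjusted p = 0.0177). Cubn, the receptor that takes up protein at the yolk sac surface, stood at 4.23, 2.23 and 1.99 FPKM in WT and 0.969, 0.857 and 0.446 FPKM in KO (-1.08 ± 0.26, adjusted p = 0.0454). These 3 genes separated fully. Apoa2, an apolipoprotein, stood at 2.03, 3.16 and 7.52 FPKM in WT and 0.167, 0.614 and 1.79 FPKM in KO (-1.45 ± 0.28, adjusted p = 0.00652). The carriers Afp and Rbp4, chosen after their values were seen, were lowest in KO 1 (6.30 and 28.9 FPKM) and did not pass, and Afp in KO 3 was the highest of all at 189 FPKM. None of the 10 endoderm transcription factors or 8 basement membrane genes of this list was called, with medians of -0.03 and -0.27. Cubn had reached the level for testing in WT alone, and without it 3 of 37 fell. Calls fell to 2 without KO 1, WT 2 or WT 3. Apoa2 lost its call without KO 1 (limma adjusted p = 0.0667), Ctsh without WT 3 or KO 1 (0.0517 to 0.0651), Lgmn without WT 2, WT 3 or KO 3 (0.08 to 0.098), and Cubn without any but WT 3 (0.0839 to 0.266).

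Gkn2, Tff3, Srgn, Nepn and Lgals3 were among the lowest called genes outside the lists. The gastrokines Gkn1 and Gkn2, neighbours on chromosome 6, and the trefoil factors Tff1 and Tff3, both on chromosome 17, are peptides that stomach and gut epithelia release. Gkn2 stood at 10.5, 7.73 and 9.48 FPKM in WT and 0.970, 1.33 and 2.30 FPKM in KO (log2 difference -2.04 ± 0.17, limma adjusted p = 5.5e-07). Gkn1, whose upstream sequence is shown above, stood at 3.02, 2.36 and 2.53 FPKM in WT and 0.0360, 0.0879 and 0.266 FPKM in KO (-1.69 ± 0.11, adjusted p = 1.23e-08). The lowest WT library was more than 8 times above the highest KO library in Gkn1. Tff3 stood at 12.8, 12.7 and 26.1 FPKM in WT and 1.19, 6.47 and 5.70 FPKM in KO (-1.85 ± 0.33, adjusted p = 0.00281). Tff1 stood at 1.26, 1.15 and 1.69 FPKM in WT, was listed at 0 in KO 1, and stood at 0.460 and 0.232 FPKM in KO 2 and KO 3 (-0.95 ± 0.15, adjusted p = 0.00102). Gkn1 and Tff1 were chosen after their values were seen, as partners of Gkn2 and Tff3. Both had reached the level for testing in WT alone and so had to differ. Srgn, the core protein of secretory granules in blood and endothelial cells, stood at 16.2, 12.2 and 13.5 FPKM in WT and 5.01, 1.48 and 1.31 FPKM in KO (-2.19 ± 0.35, adjusted p = 0.00112). Nepn, the endoderm proteoglycan nephrocan, stood at 31.2, 25.8 and 28.1 FPKM in WT and 2.65, 16.5 and 7.30 FPKM in KO (-1.85 ± 0.34, adjusted p = 0.00435). Lgals3, a galactose-binding lectin, stood at 20.5, 25.2 and 36.9 FPKM in WT and 6.34, 7.66 and 7.98 FPKM in KO (-1.74 ± 0.41, adjusted p = 0.0349), and its call was lost without any library but WT 1 (0.0712 to 0.233).

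These lower groups can be read against the epithelial markers of the same libraries. Of 23 tested simple epithelium genes none was called (limma), 21 had a negative difference, the median was -0.35, and 7 lay wholly below WT. Of all 12518 tested genes 5943 had a negative difference and 504 lay wholly below WT. Krt8 and Krt18, the keratins of simple epithelia, stood at 504, 604 and 783 FPKM and at 516, 700 and 922 FPKM in WT. In KO they stood at 317, 492 and 460 FPKM and at 321, 589 and 466 FPKM. In both keratins KO was lower in the mean and the groups separated for Krt8 alone. The differences were -0.58 ± 0.22 and -0.64 ± 0.23 (limma adjusted p = 0.538 and 0.399). The part of the epithelial cells in the trophoblast and yolk sac differences was not tested.

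**Figure D3:**
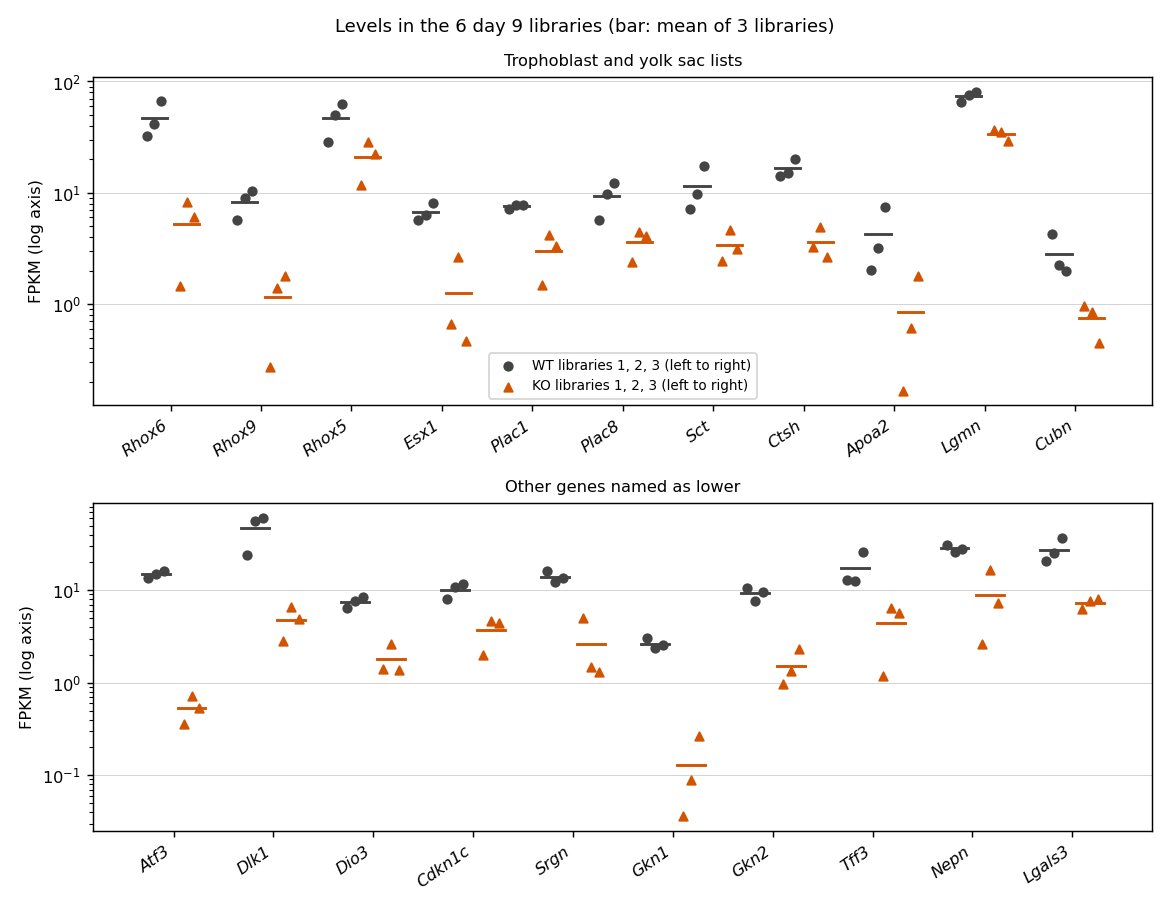
FPKM (log axis) of 11 trophoblast and yolk sac genes (upper panel) and 10 other genes named as lower (lower panel) in WT (grey circles) and KO (orange triangles), with libraries 1, 2 and 3 from left to right and bars at the mean of 3. All 21 genes lie lower in KO than in every WT library, and Atf3 and Gkn1 show the widest gaps. Both of these reached the level for testing in WT alone.

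Hox genes, which give cells their position along the body axis and are switched on in order from the anterior to the posterior end of each cluster, divided by their place in the cluster. Of 22 tested Hox genes 8 fell and none rose, against 0.615% fallen of all tested genes, and the tested list with Cdx2 had a median of -0.65. Of 10 tested genes of paralog groups 9 to 13, the posterior part, 7 fell and all 10 had negative differences, with a median of -0.85. Hoxa9, Hoxc10 and Hoxd10 of these had reached the level for testing in WT alone and so had to differ. Of the other 7, 4 fell and all were negative, with a median of -0.85. Of 5 genes of groups 6 to 8, 1 fell and all had negative differences, with a median of -0.37. The 1, Hoxc8, had also reached the level in WT alone, and without these 4 genes 4 of 18 Hox genes fell. Of 7 genes of groups 1 to 5 none was called, 6 had positive differences and the median was 0.39. The signs were the same in each group when the values were rescaled to TPM or to equal sums without rRNA-type genes. Hoxc10 stood at 1.77, 3.30 and 3.07 FPKM in WT and 0.542, 0.662 and 0.697 FPKM in KO (-1.16 ± 0.22, limma adjusted p = 0.00464). Hoxa11 stood at 5.78, 9.70 and 8.71 FPKM in WT and 2.32, 4.93 and 3.70 FPKM in KO (-0.98 ± 0.20, adjusted p = 0.00931). Its antisense gene Hoxa11os was called lower too, and the reads of the pair cannot be told apart without strand. Hoxa13, the most posterior of its cluster, stood at 4.15, 5.09 and 3.92 FPKM in WT and 1.13, 2.29 and 2.24 FPKM in KO (-0.92 ± 0.16, adjusted p = 0.00233). Hoxd13, its counterpart in the Hoxd cluster, stood at 4.56, 5.65 and 3.52 FPKM in WT and 2.01, 2.46 and 1.73 FPKM in KO (-0.85 ± 0.18, adjusted p = 0.0114). Hoxd10 stood at 1.73, 2.06 and 2.78 FPKM in WT and 0.693, 0.878 and 0.712 FPKM in KO (-0.85 ± 0.15, adjusted p = 0.00274). All 5 posterior genes separated the groups fully. Hoxc8, of the middle of its cluster, stood at 1.44, 1.85 and 1.57 FPKM in WT and 0.397, 0.640 and 0.692 FPKM in KO (-0.73 ± 0.17, adjusted p = 0.0316). At the anterior end Hoxb4 was at 1.55, 2.61 and 2.75 FPKM in WT and 5.83, 5.87 and 4.13 FPKM in KO and did not pass (0.93 ± 0.36, adjusted p = 0.518). Hoxb4 was chosen after its values were seen. The number of fallen Hox genes dropped to 3 without KO 1 or WT 2, to 5 without WT 3, and to 0 with TPM values, and without KO 3 the list had 4 higher genes. With TPM values the median of groups 9 to 13 was -0.96. Hoxa11 lost its call without WT 2, WT 3 or KO 1 (limma adjusted p = 0.0618 to 0.0883), Hoxd13 without WT 2, KO 1 or KO 3 (0.0529 to 0.107), and Hoxc8 without any but KO 3 (0.0552 to 0.187).

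**Figure D4:**
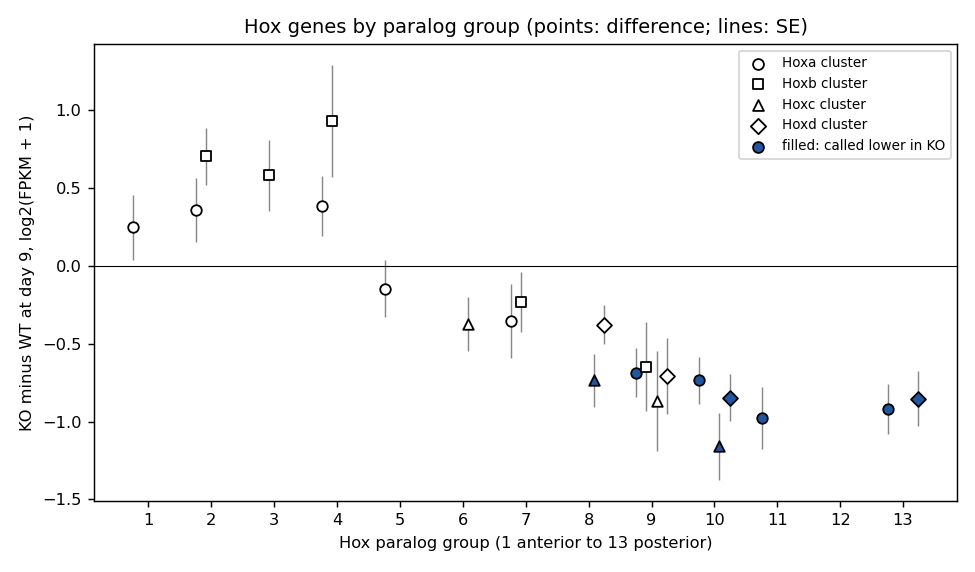
Difference between KO and WT at day 9 on the log2(FPKM + 1) scale, with SE, for the 22 tested Hox genes by paralog group, marked by cluster and filled where called lower. The differences go from positive in groups 1 to 4 to negative in groups 5 to 13, and all 10 genes of groups 9 to 13 lie at -0.65 or below.

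Of 18 imprinted growth genes, which are expressed from 1 parental copy, 2 fell and none rose. Dlk1, a Notch-like surface protein of immature cells, stood at 24.1, 56.7 and 60.7 FPKM in WT and 2.82, 6.56 and 4.92 FPKM in KO. Its mean was 9.89 times lower in KO, and the log2 difference was -3.01 ± 0.31 (limma adjusted p = 6.57e-06). WT 1 was the lowest WT library but still more than 3 times above the highest KO library. Dlk1 lies at chr12:109452823-109463336 (mm10) in an imprinted region that also holds Meg3 and Dio3. Dio3, which inactivates thyroid hormone, fell as well: 6.49, 7.70 and 8.36 FPKM in WT and 1.42, 2.60 and 1.38 FPKM in KO (-1.63 ± 0.23, adjusted p = 0.000377). The noncoding Meg3, expressed from the maternal copy, stood at 18.5, 22.5 and 29.6 FPKM in WT and 11.2, 41.2 and 37.0 FPKM in KO, with overlapping groups (0.16 ± 0.52, adjusted p = 1.00). Dio3 and Meg3 were chosen after their values were seen. Cdkn1c, an imprinted inhibitor of the cell cycle, stood at 7.96, 10.8 and 11.7 FPKM in WT and 2.01, 4.69 and 4.39 FPKM in KO (-1.29 ± 0.25, adjusted p = 0.00652). Its call was lost without KO 1 (0.0654), and the opposite-strand gene Gm44732 that overlaps it was called lower too. The most abundant imprinted gene, H19, differed by 0.11 ± 0.31.

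Signalling and housekeeping lists held few calls, beside 1.21% of all tested genes called. Lists of this size can hold 1 call or none at that share, so such counts do not set a list apart. The median was 0.42 in FGF signalling, 0.21 in glycolysis and hypoxia, 0.09 in Wnt signalling and -0.24 in interferon and MHC class I. Over all tested genes it was 0.01. All 11 tested FGF targets had positive differences. So did 19 of the 26 glycolysis and hypoxia genes, with 7 wholly above WT and 2 wholly below. These shifts were not tested. Of 39 Wnt genes 1 fell, the ligand Wnt6, from 2.00, 2.67 and 3.53 FPKM in WT to 0.349, 0.978 and 0.540 FPKM in KO (log2 difference -1.20 ± 0.21, limma adjusted p = 0.00214). Of 18 genes of FGF signalling 1 rose, the ERK phosphatase Dusp2, from 0.515, 0.997 and 1.28 FPKM to 3.07, 3.32 and 2.12 FPKM (1.00 ± 0.17, adjusted p = 0.00214). Neither gene overlapped between genotypes, and Wnt6 had reached the level for testing in WT alone. Of 26 glycolysis and hypoxia genes 1 fell, Epas1 (HIF-2 alpha), from 14.2, 7.76 and 8.32 FPKM to 4.27, 4.52 and 4.07 FPKM (-1.02 ± 0.23, adjusted p = 0.0258). Of 19 interferon and MHC class I genes 1 fell, H2-D1, from 11.0, 14.3 and 19.13 FPKM to 5.47, 8.71 and 5.96 FPKM (-1.02 ± 0.21, adjusted p = 0.00951). Epas1 lost its call without WT 1 or any KO library (0.0646 to 0.181) and H2-D1 without WT 3 or KO 1 (0.0828 to 0.0977). In 21 of the 40 lists no tested member was called, 362 different genes in all. Those included 26 genes of the integrated stress response, in which Atf3 acts (median -0.10), 24 p53 target and apoptosis genes (median -0.11), 26 pluripotency genes (median -0.04), 40 genes of BMP and TGF-beta signalling (median 0.08) and 12 neural genes (median 0.06).

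The day 9 differences were set beside those of day 6, from 6 other libraries of the same genotypes, by testing the difference between the 2 days in the same fit. It passed for 124 genes (limma, 0.991% of those tested), and for 82 without WT 3 of day 9, 269 without WT 2 of day 6, 80 without WT 3 of day 6, 66 without KO 2 of day 6 and 186 without the library labelled KO 3 of day 6. Of the 75 genes higher at day 9, 37 were among them, 40 had a difference of the opposite sign at day 6, and 2 were called in the same direction at day 6. Of the 77 lower genes these counts were 33, 28 and 6. Without the library labelled KO 3 of day 6 they were 33, 33 and 4 of the higher genes and 38, 35 and 6 of the lower genes. The change between days contains the day 9 difference by which these genes were picked, so these counts partly follow from that choice. The median day 6 difference was -0.02 in the higher genes and -0.11 in the lower genes, against 0.03 over all tested genes. Myh6 stood at 1.49, 1.02 and 1.06 FPKM in WT and 1.88, 1.53 and 0.539 FPKM in KO at day 6, with overlapping groups, and the difference between days was 2.75 ± 0.34 (limma adjusted p = 0.00015). Aplnr and Foxc2 turned round. Aplnr stood at 24.8, 13.1 and 22.9 FPKM in WT and 5.29, 3.16 and 2.08 FPKM in KO at day 6, so that KO was lower there (-2.25, adjusted p = 6.82e-05) and higher at day 9. Foxc2 stood at 4.32, 2.15 and 3.45 FPKM in WT and 0.203, 0.258 and 0.109 FPKM in KO at day 6 (-1.82, adjusted p = 0.000222). Without the library labelled KO 3 these day 6 differences were -2.005 and -1.77 (limma adjusted p = 0.000205 and 0.000542). The changes between days were 3.41 ± 0.36 and 2.99 ± 0.32 (adjusted p = 2.89e-05 for both). Hbb-bh1 was higher in KO at day 6, at 1376, 1722 and 126 FPKM against 57.8, 15.1 and 16.1 FPKM in WT, with the library labelled KO 3 the lowest of its group, and the groups overlapped at day 9 (change between days -5.15 ± 1.06, adjusted p = 0.0153). Rhox6 was at 2.05 to 3.92 FPKM in WT at day 6 and 32.2 to 66.5 FPKM at day 9, while in KO it was at 0.197 to 3.66 and 1.47 to 8.32 FPKM. The median difference of Hox paralog groups 9 to 13 was 0.40 at day 6 (0.41 without the library labelled KO 3) and -0.85 at day 9, and the change between days passed for 7 of the 10 (8 without it). Hoxd13 stood at 0.354 to 0.462 FPKM in WT and 0.595 to 1.499 FPKM in KO at day 6. The genes called at both days in the same direction included Atf3, Dlk1 and Cdkn1c, and also Wnt6 and Dusp2. Atf3 at day 6 differed by -2.84 ± 0.40 (limma adjusted p = 0.000876) and by -3.45 ± 0.34 without the library labelled KO 3 (adjusted p = 6.68e-06). Without that library the other 4 were called as well. Dlk1 was at 3.33 to 8.51 FPKM in WT and 0.483 to 1.63 FPKM in KO at day 6, and its change between days did not pass (-1.29 ± 0.44, limma adjusted p = 0.261). Its day 6 call was lost without WT 3 of that day (adjusted p = 0.0764). Tie1 was the 1 named endothelial gene called higher at both days, with a change between days of 0.27 ± 0.29, and its day 6 call was lost without KO 1, KO 2, WT 1 or WT 3 of that day (limma adjusted p = 0.0699 to 0.298).

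**Figure D5:**
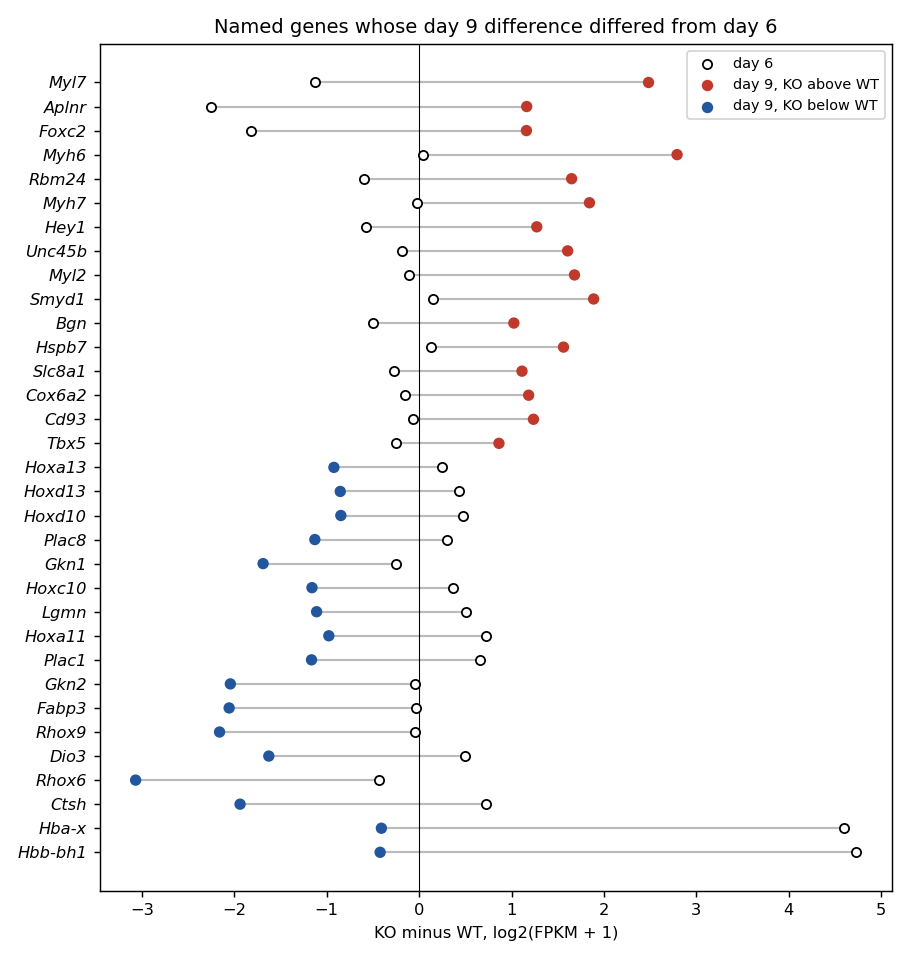
Difference between KO and WT on the log2(FPKM + 1) scale at day 6 (open circles) and day 9 (filled) for 33 genes. These are the genes, of 70 followed through the alternative fits, whose differences changed between the days at an adjusted p under 0.05. Myh6 moves from 0.04 to 2.79 and Myl7 from -1.13 to 2.48, Fabp3 moves the other way from -0.04 to -2.06, Aplnr and Foxc2 cross from -2.25 and -1.82 to 1.16, posterior Hox genes cross to the left, and the 2 globins fall from above 4 to about -0.4.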

How the data were processed

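The deposited table gives FPKM, computed by the authors per gene and library for all 24 libraries. Per the labels' protocols, libraries were made with NEBNext Ultra II from poly(A)+ RNA and read as pairs on a NovaSeq. The submitters' processing notes list, with no roles, HISAT2 2.2.1 and featureCounts 2.0.1 with build mm10, and also Trimmomatic 0.39, FastQC 0.11.9, R 4.1.0 and DESeq2 1.30.1. The series' design text gives HISAT2 as the aligner and says that reads with a single place in the genome were identified. The sources used here give neither strand nor the way FPKM was computed, so near-identical and overlapping genes are less certain.

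Genes with at least 1 FPKM in at least 3 of the 6 day 9 libraries were kept. limma 3.58.1 (R 4.3.3) with a trended prior was fitted to log2(FPKM + 1) over all 8 groups of genotype and day (16 residual and 4.33 prior degrees of freedom). The contrasts were KO minus WT at day 9, and that difference minus the same at day 6. All tests were two-sided, adjusted by Benjamini-Hochberg over 12518 genes, with a threshold of 0.05. Fold changes are differences on that log2 scale and understate changes of genes near 1 FPKM. Values after ± are standard errors.

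With exon lengths from GENCODE vM21 (53360 of 53465 identifiers), between 96.2% and 96.9% of the day 9 values of at most 50 reads lay within 0.05 of a whole read. The sums of those reads are the depths, and they were used in 1 alternative (voom). Wilson intervals of read shares (95%) cover counting error only. Day 9 libraries within a group differed by a chi-square of 34.3 to 217 per degree of freedom, so none was a copy of another. The rest used Python 3.11.15 with matplotlib 3.10.9, scipy 1.17.1, numpy 2.4.6 and pandas 2.3.3. The limma script was tested on simulated data.

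The named genes are Atf3, the 12 highest and 12 lowest called genes without overlap between groups and with a mean of 5 FPKM in the higher group, and members of the lists described. Of each list these are up to 5 called members with the largest change, the leading one of each role, or the 2 most abundant where fewer than 2 passed. Predicted genes were passed over, and not every gene the rule takes is described. A set of 70 of the genes named, 59 of them called at day 9, was followed through the alternative fits. Other called genes that the text mentions, such as Tek, Actn2, Ldb3 and Emcn, were not in that set. The 40 gene lists, the members and the comparison were chosen with earlier results of these data known. Libraries of days 0 and 3 entered the fit only through the spread.

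Alternatives were 2 other pseudocounts, 3 other filters, 2 other scalings, fewer libraries in the fit, a replicate block, voom, library weights and leaving out each library. Added after seeing the data were a covariate for the rRNA-type share, day 6 differences without each day 6 library, and list counts without genes that reached the level for testing in 1 genotype alone.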

Additional observations from a re-analysis of the deposited data

Results flagged for a closer look

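Of the 70 genes followed through the alternative fits, 33 had a difference between KO and WT that changed between day 6 and day 9 (limma interaction, adjusted p under 0.05). Each value here is the day 9 difference minus the day 6 difference on the log2(FPKM + 1) scale, from 3 libraries in each of 4 groups. In heart muscle and its factors it moved towards KO in Myh6 (2.75), Myh7 (1.87), Myl2 (1.79), Myl7 (3.61), Hspb7 (1.44), Slc8a1 (1.38), Smyd1 (1.74), Tbx5 (1.12), Hey1 (1.85), Unc45b (1.80), Rbm24 (2.24) and Cox6a2 (1.34), and away from KO in Fabp3 (-2.02). In vessel, mesoderm and matrix genes it moved towards KO in Cd93 (1.304), Aplnr (3.41), Foxc2 (2.98) and Bgn (1.52). The embryonic globins had the widest moves of the 33, Hbb-bh1 (-5.15) and Hba-x (-5.01), and both were higher in KO at day 6 with no call at day 9. Trophoblast and yolk sac genes moved away from KO: Rhox6 (-2.63), Rhox9 (-2.12), Plac1 (-1.82), Plac8 (-1.43), Ctsh (-2.66) and Lgmn (-1.62). So did the gastrokines Gkn2 (-1.99) and Gkn1 (-1.44), the posterior Hox genes Hoxc10 (-1.53), Hoxa11 (-1.70), Hoxa13 (-1.16), Hoxd13 (-1.29) and Hoxd10 (-1.32) and Dio3 (-2.12). With 1 of the 12 libraries of the 2 days left out, 13 of the 33 lost the call at least once: Myl7, Slc8a1, Fabp3, Smyd1, Hey1, Hbb-bh1, Hba-x, Rhox6, Plac8, Ctsh, Lgmn, Hoxc10 and Bgn (adjusted p up to 0.141). Without the library labelled KO 3 of day 6, which held 4.17 FPKM of Atf3, 1 of the 33 lost the call (Fabp3). Without WT 3 of day 6, at 7855615 reads and 45.6% of them in rRNA-type genes, 10 did. The call held for 19 of the 33 with TPM values and for 6 with the 12 libraries alone, and no direction turned. Most of these genes were named for their day 9 difference, which is part of the change, so the number 33 partly follows from that choice.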

How the results depend on the processing

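Atf3 was called lower in all fits tried, with log2 differences from -4.84 to -3.30 and adjusted p from 3.02e-07 to 0.00873. The day 9 count of 152 genes became 48 with a pseudocount of 0.1, 279 with no filter (30399 genes tested), 45 with a minimum of 5 FPKM (6914 genes tested), 85 with TPM values, 382 with library weights, and 104 to 176 when 1 library was left out. It became 1 with the 6 day 9 libraries alone, 24 with the 12 libraries of days 6 and 9, and 70 with the rRNA-type share as a covariate in the 6 libraries. The last was chosen after seeing the data. The count of 124 genes whose difference changed between days 6 and 9 became 50 with the smaller pseudocount, 245 with no filter, 28 with the higher minimum, 55 with TPM values, 10 with the 12 libraries alone, 44 with voom, 1521 with library weights, and 66 to 269 when 1 library was left out. The cause of these moves was not tested, beyond the numbers of genes and libraries given. TPM values moved the median change between days over all genes to -0.55 from -0.02. No called gene turned its direction in any fit. Of the 59 called genes followed through the alternative fits, 33 were called without each of the 6 libraries in turn. TPM values ended the calls of Cebpa, Actc1, Slc8a1, Fabp3, Hey1, Cdh5, Sox18, Plac1, Plac8, Sct, Lgmn, Cubn, Lgals3, Hoxc10, Hoxa11, Hoxa13, Hoxd13, Hoxd10, Hoxc8, Cdkn1c, Fbn1, Bgn, Epas1 and H2-D1, and Nkx2-5 and Hoxb4 passed with them. A pseudocount of 0.1 ended 38 of the 59 calls: those of Myl4, Myl7, Actc1, Tnnt2, Hspb7, Myom1, Slc8a1, Cox6a2, Tbx5, Hey1, Tie1, Cdh5, Plvap, Icam2, Aplnr, Sox18, Foxc2, Fbn1, Bgn, Plac1, Plac8, Sct, Apoa2, Cubn, Gkn2, Tff1, Tff3, Srgn, Nepn, Lgals3, Cdkn1c, Epas1, Hoxa11, Hoxa13, Hoxc8, Hoxc10, Hoxd10 and Hoxd13. Voom on the recovered reads ended 16, those of Slc8a1, Tbx5, Cdh5, Icam2, Aplnr, Sox18, Foxc2, Fbn1, Bgn, Plac1, Sct, Apoa2, Hoxa11, Hoxa13, Hoxc8 and Hoxd10. Genes that were not called turned with 1 library left out: Acta2 ranged from -0.0199 to 0.434, Tagln from -0.204 to 0.275, Hbb-bh1 from -0.843 to 0.155, Hba-x from -0.869 to 0.257 and Meg3 from -0.163 to 0.733. Tagln was at -0.0924 with library weights.

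Same-numbered libraries of the 2 genotypes did not deviate together at day 9 (correlations over 12518 genes of 0.21, 0.21 and -0.50), so the numbers were not taken as pairs. With the replicate number as a block 168 genes were called at day 9 and 209 for the change between days. Of the 59 called genes followed through the alternative fits, 1 lost its call at day 9. The depth of 13771073 to 25274402 reads at day 9 and 7855615 to 17003214 at day 6, 3 libraries a group and no statement of separate cultures limit what can be called. Genes under 1 FPKM were mostly untested.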
